A study of Homo sapiens with 4 samples.

Results

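The genes described here encode the enzymes and cofactors that write, copy and remove DNA methylation in human cells. They are the DNA methyltransferase genes DNMT1, DNMT3A and DNMT3B, the cofactor genes UHRF1, UHRF2 and HELLS, and the dioxygenase genes TET1, TET2 and TET3, 9 genes chosen by name. A count row was paired with 8 of them, among 22852 gene symbols in all, and those 8 were all tested. TET3 was paired with no row by the tables used here and was not analysed here. The cells were PC-3M-luc, a luciferase-tagged line from a human prostate carcinoma, at passages 17 to 20, and their total RNA was sequenced. Cells were transfected with Dharmafect 2 and either a control RNAi reagent (2 libraries) or RNAi against LSD1 (2 libraries), and all were harvested after 72 h. LSD1 is the product of KDM1A, an enzyme that uses flavin to take methyl groups off lysines of histone H3.

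DNA methylation in mammals sits mainly on cytosines followed by guanine. After replication DNMT1 copies the pattern onto the new strand, brought to hemimethylated sites by UHRF1, whereas DNMT3A and DNMT3B place methyl groups at new sites. HELLS, a chromatin remodeller of the SNF2 family, opens compacted chromatin to methyltransferases, and UHRF2 is a paralogue of UHRF1. TET enzymes oxidise 5-methylcytosine with 2-oxoglutarate and iron, which leads to loss of the mark by dilution or by base excision repair. LSD1 is known to act on DNMT1 protein, by removing methyl groups that destabilise it. The libraries measure RNA, and neither protein nor DNA methylation was measured in them.

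The knockdown was checked first on its target. KDM1A reads went from 2920 and 2892 in control to 218 and 234 after knockdown, and the normalised level fell 13.2-fold (log2 fold change -3.72, SE 0.0973, edgeR quasi-likelihood adjusted p = 2.84e-24). Reads assigned to genes numbered 12041283 to 12832064 per library, so that 3 reads correspond to 0.234 to 0.249 CPM, the usual depth-scaled unit of counts, here over all reads in genes. The labels call the 2 libraries of a group biological replicates. Chi-square values per gene were 4.97 for the control pair, 4.29 for the knockdown pair and 26.5 to 29 for pairs across groups, so replicates were not one library counted again.

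After LSD1 knockdown the maintenance genes UHRF1 and DNMT1 fell, the de novo genes DNMT3A and DNMT3B moved in opposite directions, and UHRF2, HELLS, TET1 and TET2 were not called. Of the 8 genes 3 fell, 1 rose and 4 did not pass an adjusted p of 0.05. Across the 13252 genes tested 36.1% were called, 18.2% higher and 17.9% lower, and the 4 called of 8 are not far from that share. The CPM of the groups did not overlap for 5 of the 8 genes, against 67.2% of all tested genes. The median log2 fold change was -0.15 over the 8 genes and 0.0023 over all tested genes, and the median absolute value was 0.36 against 0.23.

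**Figure D1:**
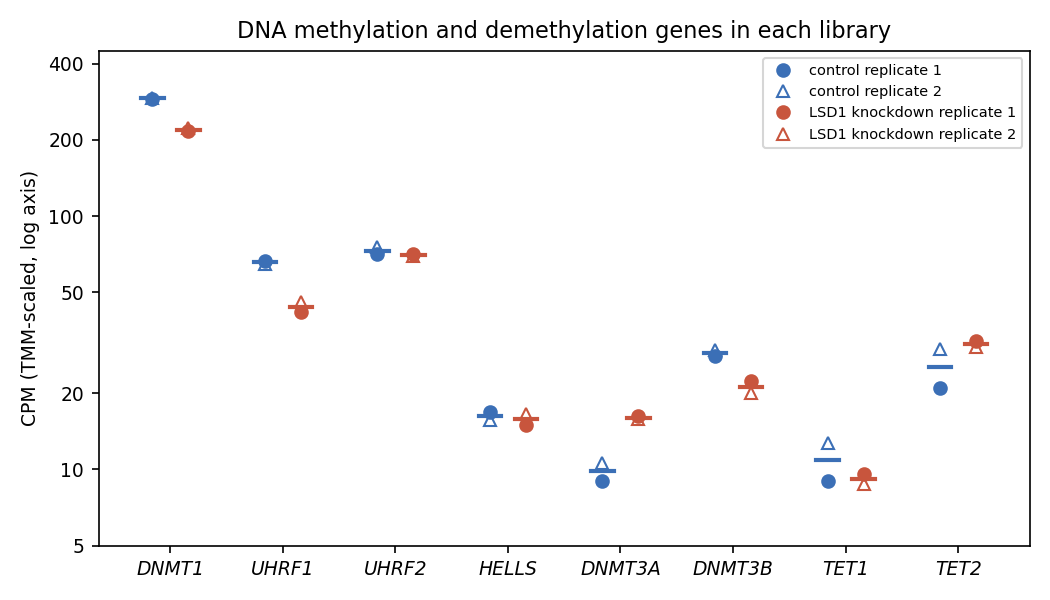
CPM of the 8 genes in each library on a log axis, with control libraries in blue, LSD1 knockdown libraries in red, circles for replicate 1, triangles for replicate 2 and bars for the mean of 2. DNMT1, UHRF1 and DNMT3B lie lower in both knockdown libraries and DNMT3A lies higher, while the 2 control libraries of TET1 and TET2 stand apart from each other.

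UHRF1, which recognises hemimethylated DNA and recruits DNMT1, had 825 and 790 reads in control and 511 and 591 in knockdown libraries. Both knockdown libraries lay below both control libraries, and replicates of a group differed 1.02-fold and 1.09-fold. Its level fell 1.5-fold, from 65.7 ± 0.982 to 43.8 ± 2.72 CPM (SD, n = 2 each). The log2 fold change was -0.59 with an SE of 0.0927 (edgeR adjusted p = 6.8e-06). This was the smallest adjusted p among the 8 genes.

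DNMT1, the maintenance methyltransferase, was the most deeply counted of the set, with 3611 and 3556 reads in control and 2641 and 2884 in knockdown libraries. The groups did not overlap, and the control libraries agreed within 1.01-fold. The level fell 1.33-fold, from 291.7 ± 1.42 to 219.6 ± 4.73 CPM (SD, n = 2 each). On the log2 scale the change was -0.41 with an SE of 0.0797 (edgeR adjusted p = 0.000122). In the GENCODE annotation an exon of DNMT1 shares 83 nucleotides on the same strand with S1PR2, a sphingosine phosphate receptor gene. S1PR2 held only 121 to 234 reads per library and went the other way, with a log2 fold change of 0.89 (edgeR adjusted p = 5.06e-06).

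UHRF2 showed no such fall. It had 877 and 916 reads in control and 865 and 898 in knockdown libraries, and the groups overlapped. The log2 fold change was -0.06 with a 95% interval from -0.24 to 0.12 (edgeR adjusted p = 0.645), so a fall of the size seen for UHRF1 lies outside that interval. Within a library there were 0.941 and 0.862 UHRF1 reads per UHRF2 read in control and 0.591 and 0.658 in knockdown cells. This ratio needs no scaling between libraries, and it was lower in both knockdown libraries by 0.53 on the log2 scale.

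HELLS had 209 and 190 reads in control and 183 and 215 in knockdown libraries, and the groups overlapped. Its log2 fold change was -0.04 with a 95% interval from -0.30 to 0.23 (edgeR adjusted p = 0.849). Reads of DNMT1 per read of HELLS went from 17.3 and 18.7 in control to 14.4 and 13.4 in knockdown libraries, so within each library the balance of these 2 maintenance genes moved away from DNMT1.

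**Figure D2:**
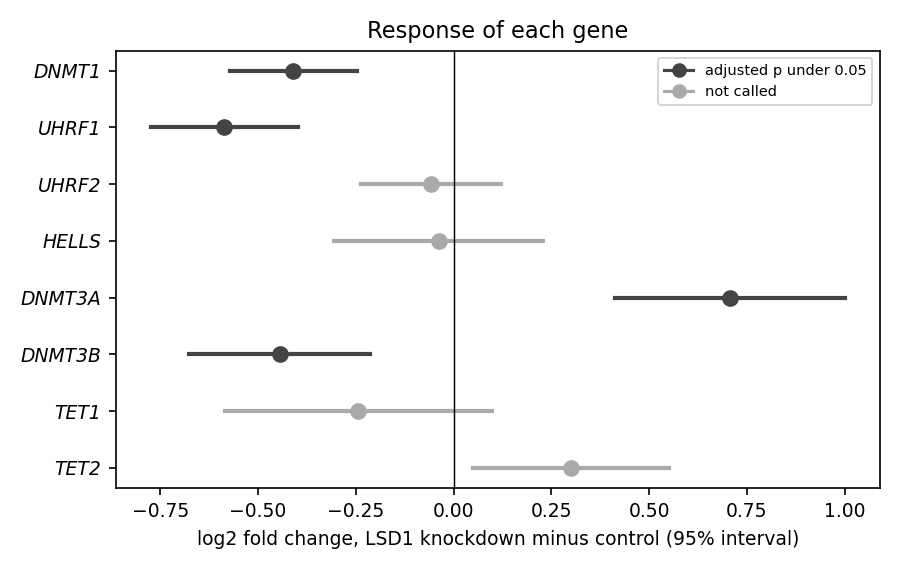
Log2 fold change of each gene, LSD1 knockdown minus control, with its 95% interval from the edgeR quasi-likelihood fit, dark where the adjusted p was under 0.05. The intervals of DNMT1, UHRF1 and DNMT3B lie below 0 and that of DNMT3A above 0, those of UHRF2, HELLS and TET1 include 0, and that of TET2 lies just above 0 without a call.

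UHRF1, DNMT1 and HELLS are known as genes of proliferating cells, and their promoters were compared because 2 of them fell and the third did not. The stretches below come from the RefSeq promoter table and run from 100 bases before the annotated start through the first 20 bases of the transcript, 120 bases in all. Capitals mark matches on either strand to 2 forms of the E2F site, TTTCCCGC and TTTNGCGC, and UHRF2 is shown as the paralogue without a match.
UHRF1 (GRCh38.p14, chr19:4909401-4909520, plus strand): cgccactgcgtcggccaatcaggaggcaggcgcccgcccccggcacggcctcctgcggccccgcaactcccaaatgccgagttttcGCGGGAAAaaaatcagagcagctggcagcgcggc
DNMT1 (GRCh38.p14, chr19:10194934-10195053, minus strand): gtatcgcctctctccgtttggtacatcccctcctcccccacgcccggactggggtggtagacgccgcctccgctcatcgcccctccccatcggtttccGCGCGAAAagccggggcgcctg
HELLS (GRCh38.p14, chr10:94545688-94545807, plus strand): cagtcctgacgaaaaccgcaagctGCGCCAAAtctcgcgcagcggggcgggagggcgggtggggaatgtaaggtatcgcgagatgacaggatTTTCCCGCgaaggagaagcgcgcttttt
UHRF2 (GRCh38.p14, chr9:6413099-6413218, plus strand): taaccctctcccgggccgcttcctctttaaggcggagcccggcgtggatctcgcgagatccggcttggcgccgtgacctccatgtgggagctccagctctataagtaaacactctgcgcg

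In UHRF1 the match to TTTCCCGC lay on the reverse strand and began 14 bases before the start. In DNMT1 the match to TTTNGCGC lay on the reverse strand and spanned the start. HELLS held both forms, TTTCCCGC ending on the last base before the start and TTTNGCGC on the reverse strand from 76 bases before it. A second window of UHRF1 held TTTNGCGC from 160 bases before its own start, whereas no window of DNMT3A (6 windows), DNMT3B (1), UHRF2 (1), TET1 (3) or TET2 (2) held either form. The windows searched run from 250 bases before to 50 after each start, and 3.37% of all 35116 such windows held a form (1.63% TTTCCCGC and 1.79% TTTNGCGC, which can overlap). HELLS, which was not called, carried 2 matches, while DNMT3B, which fell, carried none in its only listed window. Whether that window lies at the start of the counted DNMT3B rows was not checked. Whether a match goes with the fall of a gene was not tested. Among tested genes with a window, 22.9% of 711 with a form were called lower and 15.9% higher, against 18.0% and 18.5% of 9892 without one. A match is a description of these letters and not evidence of binding.

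The windows also differed in how much of the substrate of these enzymes they hold. The number of CG pairs in 300 bases was 36 to 46 in the 3 UHRF1 windows, 30 in DNMT1, 26 in UHRF2, 22 in HELLS, 18 to 46 in DNMT3A, 13 and 35 in TET2 and 6 to 11 in TET1, against a median of 14 over all windows. The only DNMT3B window listed held 3, and any start of the gene outside the listed windows was not searched.

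DNMT3A, a de novo methyltransferase, rose. It had 112 and 129 reads in control and 199 and 204 in knockdown libraries, with both knockdown libraries above both controls. The level went from 9.82 ± 1.13 to 16.03 ± 0.371 CPM (SD, n = 2 each). It rose 1.63-fold, by 0.71 on the log2 scale with an SE of 0.144 (edgeR adjusted p = 0.000219). Among the 8 genes this was the largest change in either direction, and 10.2% of all tested genes changed as much or more.

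DNMT3B, the other de novo enzyme, fell. Its reads were 348 and 361 in control and 273 and 260 in knockdown libraries, again with no overlap. The level fell 1.36-fold, from 28.9 ± 1.20 to 21.2 ± 1.59 CPM (SD, n = 2 each). Its log2 fold change was -0.44, with an SE of 0.114 (edgeR adjusted p = 0.00235). Reads of DNMT3A per read of DNMT3B were 0.322 and 0.357 in control and 0.729 and 0.785 in knockdown cells. The log2 ratio thus rose by 1.16, from -1.56 ± 0.11 to -0.40 ± 0.075 (SD, n = 2 each), the largest shift among the 5 ratios computed.

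The rows of individual RefSeq transcripts share most of their reads within a gene and were described without a test. All 4 DNMT3A rows were higher in both knockdown libraries than in either control. NM_153759, an alternative transcript of the gene, had 104 and 119 reads against 178 and 180. NM_175630 was counted little, with 8 and 11 reads in control and 22 and 26 in knockdown libraries. The 6 DNMT3B rows held 311 to 361 reads in control and 229 to 273 in knockdown libraries, so each was lower after knockdown. The 2 rows of DNMT1 differed by at most 4 reads in a library and the 2 of UHRF1 by at most 32, and neither pair gives separate information. For TET2 the second row, NM_017628, held 119 and 206 reads in control and 196 and 182 in knockdown libraries, and there the groups overlapped.

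TET2 had 261 and 362 reads in control and 391 and 395 in knockdown libraries. Both knockdown values were above both controls, but the controls themselves differed 1.42-fold, at 21.0 and 29.8 CPM against 32.0 and 30.5 CPM. The log2 fold change was 0.30 with a 95% interval from 0.05 to 0.55, and it did not pass (edgeR adjusted p = 0.0557). The size of the difference depended on which control library was kept, as the log2 fold change was 0.07 without control replicate 1 (edgeR adjusted p = 0.772) and 0.57 without control replicate 2 (edgeR adjusted p = 0.000516). It passed in 4 of 12 alternative settings.

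TET1 had 112 and 154 reads in control and 117 and 113 in knockdown libraries. In CPM the controls were 9.02 and 12.7 and the knockdown libraries 9.58 and 8.73, so the groups overlapped. The log2 fold change was -0.24 with a 95% interval from -0.58 to 0.10 (edgeR adjusted p = 0.269). It was -0.47 without control replicate 1 (edgeR adjusted p = 0.0481) and 0.02 without control replicate 2 (edgeR adjusted p = 0.956). TET1 and TET2 were both lower in control replicate 1 than in control replicate 2, by 1.41-fold and 1.42-fold. Their ratio varied less between replicates than either gene, with 0.429 and 0.425 TET1 reads per TET2 read in control and 0.299 and 0.286 in knockdown libraries. That ratio was computed after the values were seen, and it was lower in both knockdown libraries by 0.55 on the log2 scale.

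**Figure D3:**
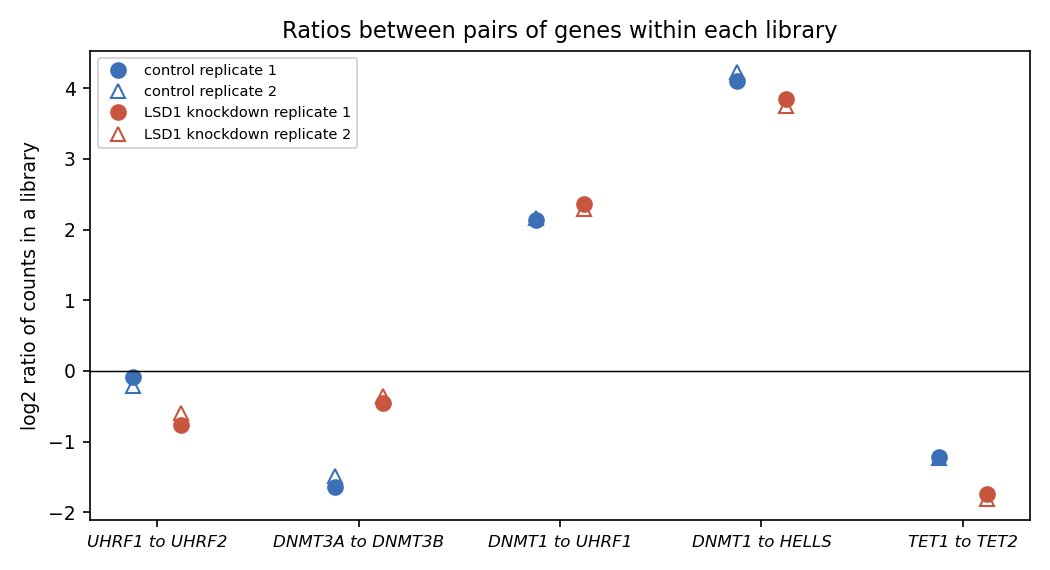
Log2 ratio of the read counts of 2 genes within each library, with control in blue, LSD1 knockdown in red, circles for replicate 1 and triangles for replicate 2. The groups do not overlap in any of the 5 ratios. Of all tested single genes 67.2% do not overlap either, and no such share was computed for other ratios. The DNMT3A to DNMT3B ratio moves most, from -1.56 to -0.40.

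The exact permutation test used for the 5 ratios cannot make a call with 4 libraries. Each ratio gave an exact two-sided permutation p of 0.333, also after Benjamini-Hochberg adjustment over the 5, which is the smallest value that 2 libraries against 2 allow. The smallest of the shifts was that of DNMT1 to UHRF1, 2.15 ± 0.029 in control and 2.33 ± 0.059 in knockdown libraries on the log2 scale (SD, n = 2 each). Ratios of reads are not ratios of transcripts, since the lengths counted were not given, so only their change between groups was read.

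Genes whose levels followed UHRF1 most closely over the 4 libraries were SPINDOC, FSCN1 and IER3. Their root mean square distances from UHRF1 in centred log2 CPM were 0.00914, 0.0108 and 0.0121, among 10938 genes averaging 5 CPM or more. With 4 libraries such a profile holds little more than the size of the group difference, -0.59 for SPINDOC and -0.60 for both FSCN1 and IER3.

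DNA replication genes were taken as a comparison for the maintenance genes, which act at the replication fork. Over all tested genes 17.9% fell, and the median log2 fold change was 0.0023. Of 29 replication genes 22 fell and 7 were not called, with a median of -0.54. Among them FEN1, a flap endonuclease, fell 1.78-fold, RRM1, the large subunit of ribonucleotide reductase, 1.76-fold, MCM5, a helicase subunit, 1.73-fold, and RRM2 1.67-fold. UHRF1 lay inside this range, with 11 of the 29 genes lower than it, as did DNMT1 with 18 lower. HELLS lay near the upper end of the same range, with 28 of the 29 below it, and its 95% interval did not reach their median. Of the replication genes with a promoter window, 10 of 15 with an E2F form and 9 of 11 without one fell.

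The list of maintenance cofactors also held genes with other roles, such as histone methyltransferases and a partner of the de novo enzymes. Of its 14 tested genes 3 fell and 11 were not called, with a median of 0.01. Over all tested genes 17.9% fell, and these 3 are near that share. PCNA, the sliding clamp that binds DNMT1, fell 1.56-fold (edgeR adjusted p = 1.09e-06), LIG1, the ligase that joins Okazaki fragments, fell 1.52-fold (edgeR adjusted p = 0.00111), and CDCA7L fell 1.56-fold (edgeR adjusted p = 1.09e-05). CDCA7, the partner of HELLS, had a log2 fold change of 0.05 with overlapping groups (edgeR adjusted p = 0.709). USP7, a deubiquitinase that binds DNMT1 and UHRF1, was at -0.02 (edgeR adjusted p = 0.841). DNMT3L, the catalytically inactive partner of the de novo enzymes, had 0 reads in all 4 libraries, which allows up to 0.249 CPM by counting error.

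Of 9 tested readers of methylated DNA 3 rose and 6 were not called, with a median of 0.03, and the called share is near the 36.1% of all tested genes. MBD5 rose 1.63-fold (edgeR adjusted p = 8.11e-05), and ZBTB38, a zinc finger reader, rose 1.37-fold (edgeR adjusted p = 0.0395). ZBTB38 lost its call in 6 of 12 settings, and without control replicate 1 its log2 fold change was 0.25 (edgeR adjusted p = 0.398).

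The repair genes that complete demethylation had no common direction. Among 13 tested 3 rose, 4 fell and 6 were not called, with a median of -0.04, against 36.1% called over all tested genes. GADD45A and GADD45B, stress genes linked to demethylation, fell 1.75-fold and 1.84-fold. APEX1, the apurinic site endonuclease, rose 1.34-fold and the ligase gene LIG3 rose 1.5-fold, all with an edgeR adjusted p of 0.000119 or lower. TDG, the glycosylase that removes the oxidised products of TET enzymes, had a log2 fold change of -0.24 without overlap between groups and did not pass (edgeR adjusted p = 0.0617).

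In the list of genes that supply the methyl donor 3 of 9 tested rose, 1 fell and 5 were not called, with a median of 0.08, against 36.1% called over all tested genes. MAT2B, a regulatory subunit of S-adenosylmethionine synthetase, rose 1.70-fold, and AHCYL2 and AHCYL1, homologues of the enzyme that clears S-adenosylhomocysteine, rose 1.79-fold and fell 1.36-fold. MAT2A, the catalytic subunit, was at 0.08 (edgeR adjusted p = 0.513). Among 13 genes that supply 2-oxoglutarate or regulate TET proteins 2 rose and 11 were not called, against the same 36.1%, with a median of 0.05. IDH3A, an isocitrate dehydrogenase subunit, rose 1.44-fold (edgeR adjusted p = 6.73e-05), and OGT, the glycosyltransferase that binds TET proteins, rose 1.26-fold (edgeR adjusted p = 0.00201). The call of OGT was lost without control replicate 1 (edgeR adjusted p = 0.0648).

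Relatives by protein family gave no common direction. For comparison, 36.1% of all tested genes were called, 18.2% higher and 17.9% lower. Among 22 SNF2 remodellers, the family of HELLS, 3 rose, 5 fell and 14 were not called, with a median of 0.07. SMARCA5 and SMARCA2 fell 1.48-fold and 1.55-fold, and INO80 and HLTF rose 1.29-fold and 1.27-fold. Among 16 other 2-oxoglutarate dioxygenases, the superfamily of the TET enzymes, 2 rose, 2 fell and 12 were not called, with a median of -0.03. JMJD6 and ALKBH8 fell 1.37-fold and 1.31-fold, and the histone demethylase genes KDM6A and KDM4A rose 1.28-fold and 1.23-fold. INO80, KDM6A, KDM4A and ALKBH8 each lost the call without at least 1 library, with edgeR adjusted p-values up to 0.0502, 0.0525, 0.102 and 0.169.

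**Figure D4:**
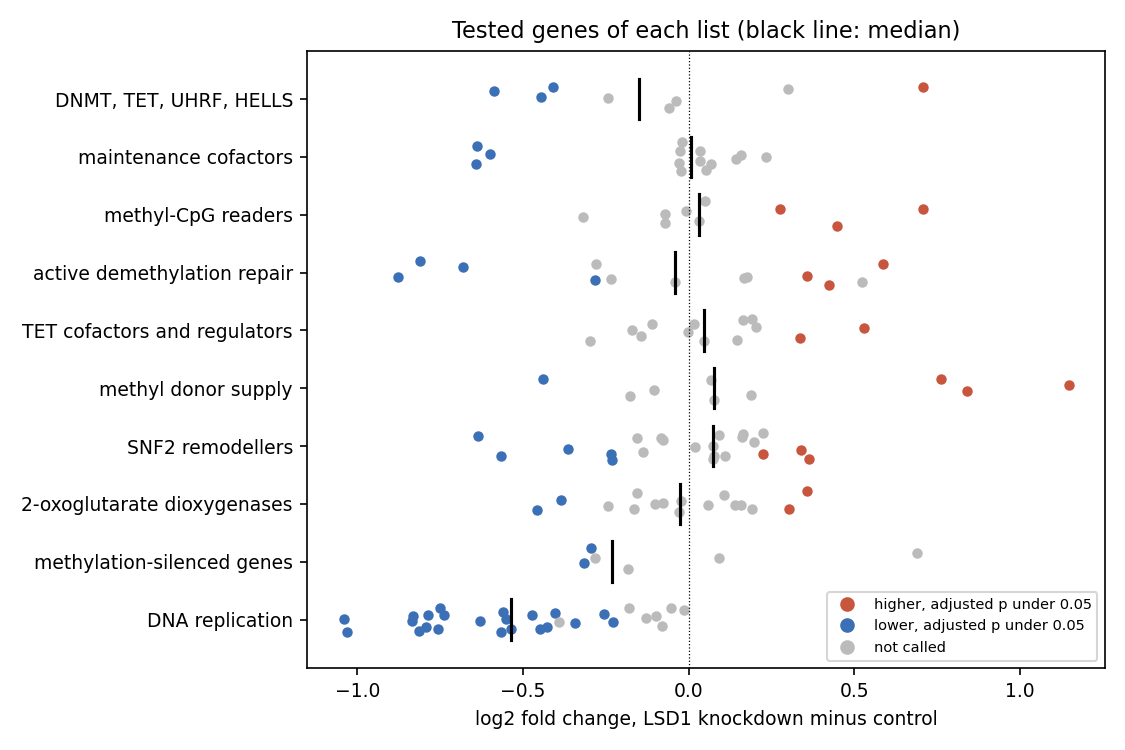
Log2 fold change of every tested gene, LSD1 knockdown minus control, for the 8 genes (top row) and 9 related lists, with a black line at the median, red for called higher, blue for called lower and grey for not called. The replication list has its median at -0.54 and the methylation-silenced list at -0.23. The other related lists have medians between -0.04 and 0.08.

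Genes known to be held silent by promoter methylation in many cells were mostly near or below detection in all 4 libraries. Of 22 such genes 16 were too low to test, with at most 5 reads in any library, and 8 of these, among them the germline genes DAZL, MAEL and SYCP1, had 0 reads in all 4 libraries. Of the 6 tested, 2 fell and 4 were not called, with a median of -0.23, and the called share is near the 36.1% of all tested genes. GSTP1, a detoxification gene often methylated in prostate cancer, fell 1.23-fold from a level of 119.8 ± 2.52 CPM (SD, n = 2; edgeR adjusted p = 0.00558), and RASSF1, a tumour suppressor gene, fell 1.25-fold (edgeR adjusted p = 0.0391). RASSF1 lost its call in 6 of 12 settings, among them each of the 4 that leave out a library. MAGEA3, a cancer-testis gene that these cells express, had a log2 fold change of -0.18 (edgeR adjusted p = 0.0933). H19 went the other way, with 23 and 23 reads in control and 42 and 34 in knockdown libraries. Its log2 fold change of 0.69 was the largest of the list and did not pass (edgeR adjusted p = 0.0639). MAGEA1 was at 0.09 and SYCP3 at -0.28, both without a call.

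Markers of cell identity were read on the same scale. The summed level of 12 epithelial and prostate markers was 995 and 997 CPM in control and 1090 and 1130 CPM in knockdown libraries. Of the 7 tested KRT8, EPCAM, CDH1 and KRT5 rose and 3 were not called, among them the abundant KRT19 at -0.07 and KRT18 at -0.12 on the log2 scale. Of the luminal markers TMPRSS2 had at most 4 reads in any library and KLK3 had 0. Leukocyte markers summed to 87.1 to 90.9 CPM in control and 48.3 to 50.4 CPM in knockdown libraries, with PTPRC, CD3E and MS4A1 at 0 throughout and nearly all of the sum from CD68. Of the 3 tested CD68 and CD79A fell, the call of CD79A being lost in 3 of 12 settings. LYZ rose, from 4 and 2 reads in control to 17 and 13 in knockdown libraries. Fibroblast and endothelial markers summed to 70.7 and 80.4 CPM in control and 116 and 113 CPM in knockdown libraries, with LUM and CDH5 at 0. Most of that difference was KDR, which rose from 24.5 to 55.1 CPM, and COL1A2 rose from 16.7 to 25.4 CPM. PECAM1 was called lower, a call lost in 9 of 12 settings, and COL1A1 had a log2 fold change of -0.11 without a call. The part of these shifts, and of the fall of replication genes, in the values of the 8 genes was not tested. In bulk RNA, fewer cells with a transcript and less of it per cell cannot be told apart.

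The 4 calls among the 8 genes kept their direction and stayed under an adjusted p of 0.05 in all 12 alternative settings. The log2 fold change ranged from -0.65 to -0.53 for UHRF1, from -0.43 to -0.38 for DNMT1, from -0.53 to -0.37 for DNMT3B and from 0.59 to 0.83 for DNMT3A. The highest adjusted p among them was that of DNMT3B without knockdown replicate 2 (edgeR adjusted p = 0.0405).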

How the data were processed

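RNA from 4 libraries, 2 control and 2 LSD1 knockdown, was analysed. The authors deposited raw read counts per RefSeq transcript, 1 table per library, which come without a header and were recognised as counts by their whole numbers. Per the submitters' processing notes the tools were TopHat2, HOMER, edgeR and DESeq 1.8.3 on build hg19. Their roles, and whether counting used strand, were not given in the sources used here. Each table has 38767 rows, of which 1090 matched no symbol in the RefSeq or GENCODE tables. Such rows, 1.38% to 1.4% of all counts, were dropped. The row with the highest mean stood for each symbol.

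Counts were scaled by TMM, filtered with filterByExpr (minimum count 10, minimum total 15) and tested in R 4.3.3 by edgeR 4.0.16 (quasi-likelihood F), group as the only term, with Benjamini-Hochberg adjustment over 13252 genes. The SE is the log2 fold change over the square root of F. The common dispersion was 0.00355. The test was checked on simulated counts. limma 3.58.1 (voom) and DESeq2 1.42.0 were alternatives, beside other scalings, filters, the replicate number as a block, summed rows and each library left out.

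The members and lists were chosen with earlier results of these data known. Named were the 8 genes, KDM1A, up to 4 called genes per list with the smallest adjusted p, and the 3 nearest profiles to UHRF1. CDCA7, USP7, DNMT3L, TDG, MAT2A, MAGEA3, S1PR2, the germline genes and the marker genes without a call were added after their values were seen. The same holds for H19, MAGEA1 and SYCP3. Some genes of the lists enter the counts but are not reported here by name. Of 7 planned ratios, 3 needed TET3 and were not run, and TET1 to TET2 was added. Promoters are from RefSeq on GRCh38.p14, matched by symbol for all 8 genes, and no gene coordinates are given for hg19.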

Additional observations from a re-analysis of the deposited data

How the results depend on the processing

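The calls of DNMT1, UHRF1, DNMT3A and DNMT3B held in the 12 settings run, and UHRF2 was not called in any of them (log2 fold change -0.11 to -0.01). TET2 passed with limma-voom (adjusted p = 0.0428), without a normalization factor (edgeR adjusted p = 0.0292), with the replicate block (edgeR adjusted p = 0.0367) and without control replicate 2, so that 2 genes were called higher in those 4 settings. Leaving out a library gave 1 to 2 genes higher and 3 to 4 lower. The TET1 value then ranged from -0.47 to 0.02 and the HELLS value from -0.12 to 0.03, turning positive at 0.01 without control replicate 1 and 0.03 without knockdown replicate 1; the cause was not tested. Of 158 genes in the 9 related lists 131 were tested, 16 rose and 39 fell, 22 of these in the replication list, and 9 to 20 rose when a library was left out, the lowest without control replicate 1. DESeq2 called 1564 genes higher and 1618 lower against 2412 and 2375. Without a normalization factor the median log2 fold change of all genes moved from 0.0023 to 0.0374, and 56.9% of called genes were higher. The replicate block gave 2634 genes higher and 2637 lower; replicate differences of the 2 groups correlated at 0.137 across 10938 genes, and with 2 numbers the samples share only a number. The 5 ratios kept their sign in the 5 settings run for them. Depth limits TET1 and DNMT3A most, with 112 to 204 reads per library.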
